A study of Mus musculus with 8 samples.

Results

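Genes for glutamate, GABA and glycine receptors were read in mouse retina on 8 Affymetrix expression arrays, 1 sample per array. A gene was a member when its symbol was that of an AMPA, kainate, NMDA, delta or metabotropic glutamate receptor subunit, a GABA-A (Gabrr1 and Gabrr2 included) or GABA-B subunit, or a glycine receptor subunit, and when a probe set carried that symbol alone. Grm6 was left out by the rule. This gave 43 of the 18193 genes named in the table, on 88 of its 45037 probe sets. For each gene, the probe set of highest mean signal over the 8 arrays stands for it. The choice used symbols and mean signal, not the difference between groups.

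Controls were 4 retinas read fresh after dissection, at a stated time of 0 d. The other 4 are described as injected retina, with a treatment given as compound based. Neither compound, dose, route and interval nor strain, genotype, sex and age are stated. All 8 titles carry the word ENZO, which is not explained. No sham arm is among these samples, so effects of needle, compound and handling cannot be told apart. Separate animals are not stated for the samples of either group, so p-values measure only the spread between these samples, which may be technical.

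Photoreceptors and bipolar cells release glutamate, and the cells below them read it through AMPA, kainate and NMDA receptors, which are ion channels, and through metabotropic receptors, which act by G proteins. Amacrine cells release GABA or glycine, which open chloride channels built from GABA-A or glycine receptor subunits. GABA-B receptors act by G proteins.

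Signal is given as log2(intensity + 16) after quantile normalisation, and a difference is the injected mean minus the control mean on that scale, which understates the change of dim genes. A gene was tested with limma when its mean signal reached the 40th percentile of all probe sets, a floor of 8.50 (345 intensity units). Of the 43 receptor genes 35 reached it and 8 did not (Grik4, Grik5, Grin2a, Grin2c, Grm2, Gabra6, Gabrq and Glra4). The median intensity per array ran from 495 to 766, and precision is limited by having 4 arrays per group. Injected replicate 3 stood apart, with the highest median intensity and the lowest limma array weight (0.191, against 0.646 to 1.83 on the other arrays). The 3′ over 5′ signal ratio of the Gapdh control probe sets, a measure of RNA quality, was 3.36 to 4.68 in control and 5.26 to 8.82 in injected arrays without overlap. The same ratio of the Actb control probe sets overlapped, at 39.2 to 57.2 in control and 43.3 to 59.7 in injected arrays. The part of these ratios in the results was not tested. For the tissue label, the markers whose mean over all arrays reached the floor were 5 of 5 for cones, 5 of 6 for bipolar cells, 6 of 6 for amacrine cells, 6 of 7 for ganglion cells, 5 of 5 for Müller glia and 2 of 3 for horizontal cells, where Onecut1 did not.

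No receptor gene differed after adjustment over all 27022 tested probe sets by limma with Benjamini-Hochberg adjustment (0 of 35, smallest adjusted p = 0.623). Over all those probe sets 0% were called in this way. At an unadjusted p under 0.05, 5 receptor genes had lower signal in injected retina (Gabra4, Gabrb2, Glra3, Gria3 and Grm8) and 2 had higher signal (Grik1 and Grik3). These 7 are 20% of the 35, where 6.68% of the 12886 tested genes and 6.99% of the tested probe sets met the same limit. Split by direction, 14.3% of the receptor genes were lower and 5.71% higher, against 2.91% and 3.77% of all tested genes and 3.33% and 3.66% of all tested probe sets. With each array centred on its median in place of quantile normalisation, the median of all probe sets shifted to -0.16 and 66.6% of them were negative. In that setting 6 receptor genes were under the limit (17.1%, against 7.59% of all tested probe sets), all of them lower and 0 higher. Receptor genes are measured on the same arrays and are not independent of each other. The count also changed when single arrays were left out, which leaves fewer arrays for each test. Without control replicate 3 or 4 it was 2 (5.71%, against 5.64% and 4.91% of all tested probe sets), near that background. Leaving out control replicate 1 or injected replicate 2 gave 3 (8.57%, against 5.15% and 7.04%), and leaving out injected replicate 1 gave 4 (11.4%, against 8.51%). It was 5 without control replicate 2 or injected replicate 3 (14.3%, against 5.06% and 6.99%), and 7 without injected replicate 4 (20%, against 9.02%).

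Of the 35 genes 23 had a negative difference and 12 a positive one, so 65.7% were negative, against 51.5% of all tested genes. Their median difference was -0.23, the same as over all 43 members, and that of all tested genes was -0.01. In 4 receptor genes all 4 injected arrays lay below all 4 controls (Gabra4, Gabrb2, Glra3 and Glrb), which is 11.4% of the 35, against 2.65% of all tested genes and 2.6% of all tested probe sets. In 0 genes did all injected arrays lie above all controls, against 2.85% of all tested genes and 2.47% of probe sets. Mean deviation from the control mean over the 35 genes was -0.03, -0.16, 0.02 and 0.17 on control arrays 1 to 4. On injected arrays 1 to 4 it was -0.25, -0.10, -0.36 and -0.06, so injected replicates 2 and 4 lay inside the control range and replicates 1 and 3 lay below it. Injected replicate 3 was the lowest of the 8 arrays for 15 of the 35 genes and the highest for 9. In bulk tissue, fewer cells of a type and less RNA per cell cannot be told apart.

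**Figure D1:**
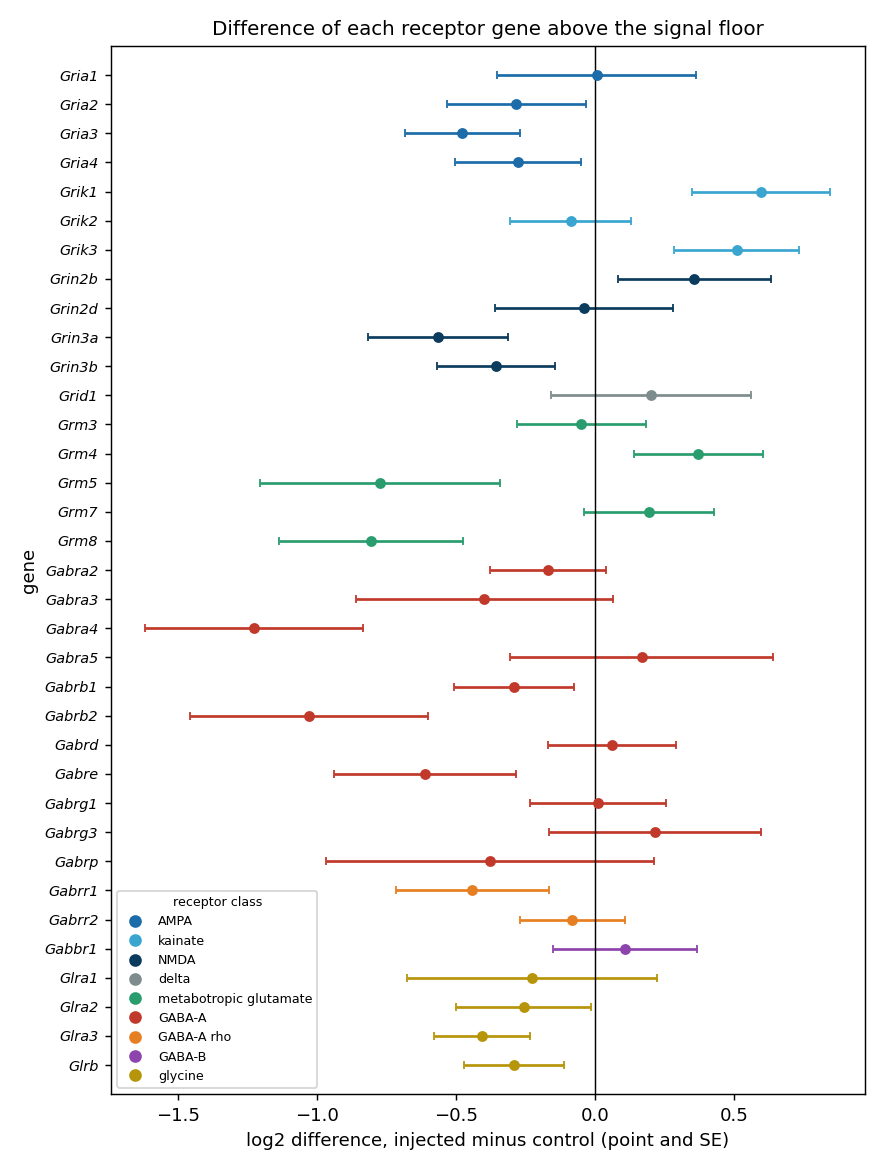
Log2 difference, injected minus control, with its SE (horizontal axis) for each of the 35 receptor genes above the signal floor (vertical axis), coloured by receptor class. The points run from -1.23 for Gabra4 to 0.60 for Grik1, and 23 of the 35 lie left of 0.

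Promoter sequence from RefSeq was at hand for 32 of the 43 genes (build GRCm38.p6). It is shown for the 4 genes above the floor whose injected arrays all lay below the controls and for Grik3, the gene with higher signal at an unadjusted p under 0.05 that had an entry. Each is the 250 bases before the most upstream listed start, 5′ to 3′ on the gene's strand, in lower case, with capitals for any match of 8 motifs searched on both strands.
Gabra4 (chr5:71658309-71658558, minus strand): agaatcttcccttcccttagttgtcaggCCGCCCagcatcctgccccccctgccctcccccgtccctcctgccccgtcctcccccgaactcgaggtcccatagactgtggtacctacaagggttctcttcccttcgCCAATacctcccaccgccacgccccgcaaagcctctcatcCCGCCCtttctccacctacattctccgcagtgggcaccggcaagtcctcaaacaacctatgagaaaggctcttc
Gabrb2 (chr11:42420190-42420439, plus strand): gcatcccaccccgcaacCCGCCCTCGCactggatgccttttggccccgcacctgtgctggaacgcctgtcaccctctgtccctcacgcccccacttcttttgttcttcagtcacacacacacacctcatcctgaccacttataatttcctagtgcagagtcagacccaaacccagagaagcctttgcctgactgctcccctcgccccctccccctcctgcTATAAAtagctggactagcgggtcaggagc
Glra3 (chr8:55940168-55940417, plus strand): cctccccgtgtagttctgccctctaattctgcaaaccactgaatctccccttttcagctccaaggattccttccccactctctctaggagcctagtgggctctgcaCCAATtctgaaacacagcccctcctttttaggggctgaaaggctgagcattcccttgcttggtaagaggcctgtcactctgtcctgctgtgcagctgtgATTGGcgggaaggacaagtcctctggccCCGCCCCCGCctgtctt
Glrb (chr3:80913661-80913910, minus strand): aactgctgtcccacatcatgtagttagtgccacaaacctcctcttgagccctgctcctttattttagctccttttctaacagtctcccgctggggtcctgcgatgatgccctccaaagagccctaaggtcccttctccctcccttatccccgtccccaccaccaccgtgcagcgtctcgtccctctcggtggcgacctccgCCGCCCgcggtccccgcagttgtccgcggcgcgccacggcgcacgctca
Grik3 (chr4:125490446-125490695, plus strand): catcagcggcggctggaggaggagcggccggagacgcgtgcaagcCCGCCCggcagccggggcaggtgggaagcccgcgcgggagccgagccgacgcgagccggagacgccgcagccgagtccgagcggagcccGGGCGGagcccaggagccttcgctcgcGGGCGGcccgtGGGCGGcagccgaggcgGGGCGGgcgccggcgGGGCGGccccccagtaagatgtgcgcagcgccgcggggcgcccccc
The motifs, chosen with results of these data known, were the GC box (GGGCGG), the CRE (TGACGTCA), the Egr motif (GCGNGGGCG), CCAAT, the TATA box (TATAAA), AP-1 (TGANTCA), STAT (TTCNNNGAA) and the Crx core (TAATCC). A GC box stood in all 5 windows, and in 59.4% of the 32 receptor promoters against 33.0% of 27025 genes' promoters of this length. The median GC content of those windows was 61.6% for the receptor genes and 52.0% for all genes. Grik3 held 6 GC boxes and no other motif, Gabra4 held 2 with 1 CCAAT, and Glrb held 1 alone. An Egr motif, the site of the Egr zinc finger factors, stood in Gabrb2 and Glra3, in each overlapping the GC box, and in 3 of the 32 promoters (9.38%, against 4.63% of all genes). Gabrb2 alone of the 5 had a TATA box, 30 to 25 bases before the start, and Glra3 held 2 CCAAT matches. The CRE was in 0 of the 32 promoters, against 1.6% of all genes, which says only that these letters are not in this window. Matches are letters in a sequence and show no binding.

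The GABA-A list held the receptor gene with the smallest p, Gabra4, which encodes the alpha 4 subunit found mainly in receptors outside synapses. Its signal was 12.12, 11.87, 12.22 and 12.20 on control arrays 1 to 4 and 11.26, 11.60, 9.59 and 11.05 on injected arrays 1 to 4. All 4 injected values lay below all 4 controls, and injected replicate 3 was the lowest by a wide margin. Group means were 12.10 ± 0.16 in control and 10.88 ± 0.88 after injection (SD, n = 4 per group), with a difference of -1.23 ± 0.39 (SE), or 0.427-fold, with a 95% interval of -2.11 to -0.35 (adjusted p = 0.623 by limma). Without injected replicate 3 the difference was -0.80. Gabra4 kept an unadjusted p under 0.05 in the chosen setting and in all 19 alternatives, a statement that held for no other receptor gene tested in each of them. Its second probe set was below the floor and differed by -1.28.

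Gabrb2 encodes a beta subunit, part of the commonest GABA-A receptors of the brain. Its signal was 14.37, 13.98, 14.16 and 14.26 on control arrays 1 to 4 and 13.80, 13.23, 11.75 and 13.87 on injected arrays 1 to 4. The groups did not overlap, and injected replicates 1 and 4 lay just under the lowest control. The difference was -1.03 ± 0.43 (SE) (adjusted p = 0.712 by limma), and -0.56 without injected replicate 3. The 5 tested probe sets of Gabrb2 went both ways: the brightest pair differed by -1.03 and -0.45 and the other 3 by 0.27, 0.33 and 0.14. The mean over all probe sets of the gene differed by -0.15 (adjusted p = 0.824 by limma).

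Of the other 9 tested GABA-A genes, 5 had negative and 4 positive differences, and all had an unadjusted p of 0.05 or more. Gabrb1, another beta subunit, was at -0.29 ± 0.22 (SE), and its 3 tested probe sets were all negative, from -0.60 to -0.29. Gabre, the epsilon subunit, was at -0.61 ± 0.33 (SE) with 3 injected arrays below all controls. The alpha subunits Gabra2, Gabra3 and Gabra5 were at -0.17, -0.40 and 0.17, and the pi subunit Gabrp was at -0.38. The gamma subunits Gabrg1 and Gabrg3, which take the place of the common gamma subunit in some receptors, were at 0.01 and 0.22, and the delta subunit Gabrd was at 0.06. Probe sets below the floor differed from these: 1 of Gabrg1 was at -1.82 and 2 of Gabrg3 at -1.41 and -2.07, and the mean of all probe sets of Gabrg1 was at -0.90 (adjusted p = 0.629 by limma, with an unadjusted p under 0.05). For Gabra5 the 95% interval ran from -0.90 to 1.24, so a difference of 1 log2 unit in Gabra5 lies inside that interval. Single arrays turned the sign of Gabrp (0.28 without injected replicate 1), of Gabra5 (-0.11 without control replicate 1) and of Gabrg3 (-0.16 without control replicate 2). Gabra6 and Gabrq, below the floor, were not tested.

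Gabrr1 and Gabrr2 encode subunits of the slow GABA receptors known from bipolar cell terminals. Gabrr1 had a signal of 12.80, 12.62, 13.19 and 13.01 on control arrays 1 to 4 and 12.56, 12.46, 11.79 and 13.04 on injected arrays 1 to 4. The injected arrays other than replicate 4 lay below the controls, and replicate 4 lay among them. The difference of Gabrr1 was -0.44 ± 0.27 (SE) (adjusted p = 0.744), and -0.22 without injected replicate 3. Gabrr2 had 10.80, 10.80, 10.72 and 10.53 on control arrays 1 to 4 and 10.94, 10.73, 10.36 and 10.48 on injected arrays 1 to 4. Its groups overlapped, its difference was -0.08 ± 0.19 (SE) (adjusted p = 0.909), and the sign turned without injected replicate 3 (0.0078).

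Gabbr1 encodes a subunit of the metabotropic GABA-B receptor. Its signal was 13.69, 13.76, 13.91 and 13.83 on control arrays 1 to 4 and 13.56, 13.69, 14.67 and 13.70 on injected arrays 1 to 4. The arrays other than injected replicate 3 all lay between 13.56 and 13.91, and that array lay far above them. The difference was 0.11 ± 0.26 (SE) (adjusted p = 0.912) with all arrays and -0.15 without injected replicate 3. Its second tested probe set gave 0.04, and those below the floor gave -0.25 and -1.47. The mean over all its probe sets was negative, at -0.40 (adjusted p = 0.774 by limma).

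The glycine receptor genes had negative differences in 4 of 4 tested members, with a median of -0.27, though the sign of Glra1 turned when single arrays were left out. Glycine receptors hold alpha subunits, of which amacrine, bipolar and ganglion cells use different ones, and the beta subunit that anchors them at synapses. Glra3, an alpha subunit, had 14.14, 14.06, 14.10 and 14.30 on control arrays 1 to 4 and 13.83, 13.65, 13.55 and 13.96 on injected arrays 1 to 4. The groups did not overlap, and injected replicate 4 lay nearest to the controls. Group means of Glra3 were 14.15 ± 0.11 in control and 13.75 ± 0.18 after injection (SD, n = 4 per group), with a difference of -0.41 ± 0.17 (SE), or 0.755-fold, with a 95% interval of -0.79 to -0.02 (adjusted p = 0.712). Of the 7 receptor genes at an unadjusted p under 0.05, Glra3 had the smallest SE. The second probe set of Glra3, far below the floor, was at 0.23, and the mean of both differed by -0.09 (adjusted p = 0.915 by limma).

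Glrb, the beta subunit, had 13.91, 13.87, 13.80 and 14.01 on control arrays 1 to 4 and 13.55, 13.80, 13.30 and 13.77 on injected arrays 1 to 4. The injected arrays lay below the controls, injected replicate 2 by the smallest margin. The difference of Glrb was -0.29 ± 0.18 (SE) (adjusted p = 0.744), and -0.31 at its second tested probe set. Without injected replicate 3 it was -0.19. The alpha subunits Glra1, the main one of the adult spinal cord, and Glra2 were at -0.23 ± 0.45 (SE) and -0.26 ± 0.24 (SE), both with overlapping groups. Glra1 rested on single arrays, at -0.59 with injected replicate 3 left out, and positive at 0.02 or 0.08 with control replicate 4 or injected replicate 2 left out. Glra4 was below the floor.

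**Figure D2:**
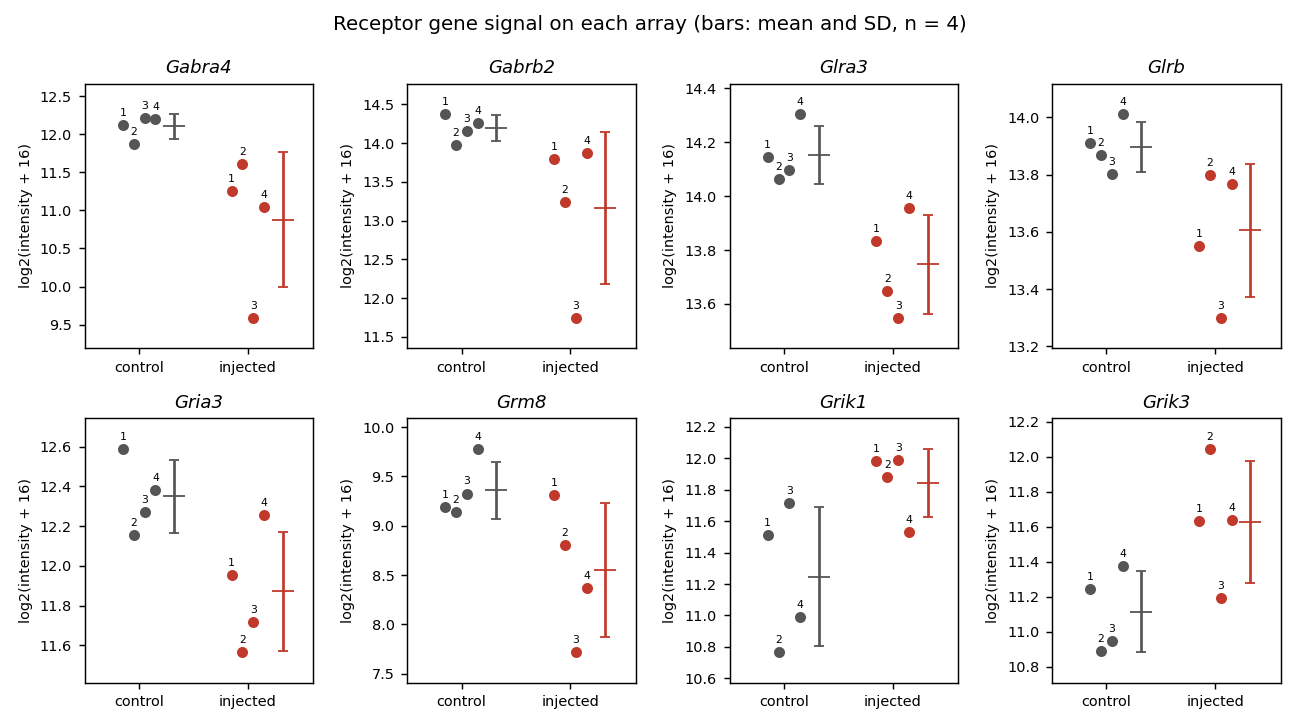
Log2(intensity + 16) on each array (vertical axis) in control and injected retina for 8 receptor genes, with the replicate number beside each point and the mean and SD beside each group. Injected arrays lie below all controls for Gabra4, Gabrb2, Glra3 and Glrb, and for Grik1 and Grik3 3 injected arrays lie above all controls.

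AMPA receptor subunits carry the fast response to glutamate in OFF bipolar, amacrine, horizontal and ganglion cells. All 4 AMPA genes were tested, with a median difference of -0.28. Gria3 had 12.59, 12.16, 12.27 and 12.38 on control arrays 1 to 4 and 11.95, 11.56, 11.72 and 12.25 on injected arrays 1 to 4. The injected arrays other than replicate 4 lay below all controls, and replicate 4 lay among them. The difference of Gria3 was -0.48 ± 0.21 (SE), with a 95% interval of -0.94 to -0.01 (adjusted p = 0.712), and its second tested probe set gave -0.47. Gria4 had 12.48, 12.57, 13.19 and 12.79 on control arrays 1 to 4 and 12.19, 12.46, 12.41 and 12.86 on injected arrays 1 to 4. Here too 3 injected arrays lay below the lowest control, by small margins, and injected replicate 4 was above all controls but replicate 3. The difference of Gria4 was -0.28 ± 0.23 (SE) (adjusted p = 0.771), and its 3 tested probe sets ran from -0.72 to -0.28. Gria2, the subunit that limits calcium entry, was at -0.28 ± 0.25 (SE), and at -0.06 without injected replicate 3; its 3 tested probe sets ran from -0.28 to 0.15. Gria1 was at 0.01 ± 0.36 (SE).

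Kainate receptors serve glutamate input to some OFF bipolar cells, and their subunit genes included the 2 members with higher signal at an unadjusted p under 0.05. Grik1 had 11.51, 10.77, 11.71 and 10.99 on control arrays 1 to 4 and 11.98, 11.88, 11.99 and 11.53 on injected arrays 1 to 4. The injected arrays other than replicate 4 lay above all controls, and control replicate 3 lay above injected replicate 4. The difference of Grik1 was 0.60 ± 0.25 (SE), or 1.51-fold, with a 95% interval of 0.04 to 1.16 (adjusted p = 0.712), and its second tested probe set gave 0.40. Grik3 had 11.24, 10.89, 10.95 and 11.38 on control arrays 1 to 4 and 11.63, 12.04, 11.19 and 11.64 on injected arrays 1 to 4. Injected replicates 1, 2 and 4 lay above all controls, and replicate 3 lay inside the control range. The difference of Grik3 was 0.51 ± 0.23 (SE), or 1.42-fold, with a 95% interval of 0.0032 to 1.02 (adjusted p = 0.713). Without injected replicate 3 it was 0.66. Both genes kept a positive difference in all 20 settings, with an unadjusted p under 0.05 in 11 of them for Grik1 and 9 for Grik3.

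Grik2, another low-affinity kainate subunit, was at -0.09 ± 0.22 (SE). The high-affinity subunits Grik4 and Grik5, which need a low-affinity partner to form a channel, were below the floor over all arrays. Grik4, named here after its values were seen, had 9.27, 8.45, 8.78 and 8.69 on control arrays 1 to 4 and 6.87, 7.70, 6.71 and 8.29 on injected arrays 1 to 4. Its control mean of 8.80 was above the floor and its injected mean of 7.39 below it, with all injected arrays under all controls. With no filter on low signal, Grik4 differed by -1.40 (adjusted p = 0.684), and only Grik4 and Gabra4 of the 43 genes were at an unadjusted p under 0.05 in that setting (4.65%, against 6.08% of all 45037 probe sets).

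NMDA receptors add a slow, calcium-permeable response, chiefly in ganglion and amacrine cells. Of 4 tested NMDA genes 3 were negative. Grin3a, a subunit that lowers calcium flow, had 9.58, 9.62, 10.18 and 10.29 on control arrays 1 to 4 and 9.84, 9.31, 9.04 and 9.22 on injected arrays 1 to 4. The injected arrays other than replicate 1 lay below all controls. The difference of Grin3a was -0.57 ± 0.25 (SE) (adjusted p = 0.715), with -0.59 at its second tested probe set and 1.01 at one below the floor. The mean of these probe sets was at -0.049 (adjusted p = 0.962 by limma). Grin3b, the related subunit, had 9.24, 8.60, 9.01 and 9.24 on control arrays 1 to 4 and 8.43, 8.92, 8.55 and 8.78 on injected arrays 1 to 4. Its groups overlapped and it differed by -0.36 ± 0.21 (SE) (adjusted p = 0.744). Grin2b and Grin2d, subunits that bind glutamate, were at 0.36 ± 0.28 (SE) and -0.04 ± 0.32 (SE), and at 0.14 and -0.31 without injected replicate 3. Of 3 tested probe sets of Grin2b, 2 were positive and 1 negative (-0.26). Grin2a and Grin2c were below the floor.

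The delta receptor gene Grid1, kin of the glutamate channels by sequence and known for organising synapses, had 11.13, 11.44, 11.86 and 12.25 on control arrays 1 to 4 and 11.24, 11.75, 12.78 and 11.71 on injected arrays 1 to 4. The groups overlapped, with injected replicate 3 the highest array. Its difference was 0.20 ± 0.36 (SE) (adjusted p = 0.881), and -0.10 without injected replicate 3.

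Metabotropic glutamate receptors tune release and excitability. Grm8, a receptor of synaptic terminals that lowers release, had 9.19, 9.14, 9.33 and 9.78 on control arrays 1 to 4 and 9.31, 8.80, 7.72 and 8.37 on injected arrays 1 to 4. The injected arrays other than replicate 1 lay below all controls, and replicates 3 and 4 lay below the floor. The difference of Grm8 was -0.81 ± 0.33 (SE), or 0.572-fold, with a 95% interval of -1.55 to -0.06 (adjusted p = 0.712), and -0.53 without injected replicate 3. Grm5, which signals through phospholipase C, had 11.62, 11.44, 11.94 and 12.10 on control arrays 1 to 4 and 11.15, 11.33, 9.63 and 11.88 on injected arrays 1 to 4. Injected replicate 4 lay among the controls, and replicate 3 lay far below all other arrays. Its difference was -0.77 ± 0.43 (SE) (adjusted p = 0.735), with -0.48 at its second tested probe set, and -0.32 without injected replicate 3. Grm4 and Grm7, which like Grm8 lower release, were at 0.37 ± 0.23 (SE) and 0.20 ± 0.23 (SE). For Grm7 the injected arrays other than replicate 3 lay above all controls, the difference without that array was 0.41, and its second tested probe set was at -0.49. Grm3 was at -0.05, and Grm2 was below the floor.

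**Figure D3:**
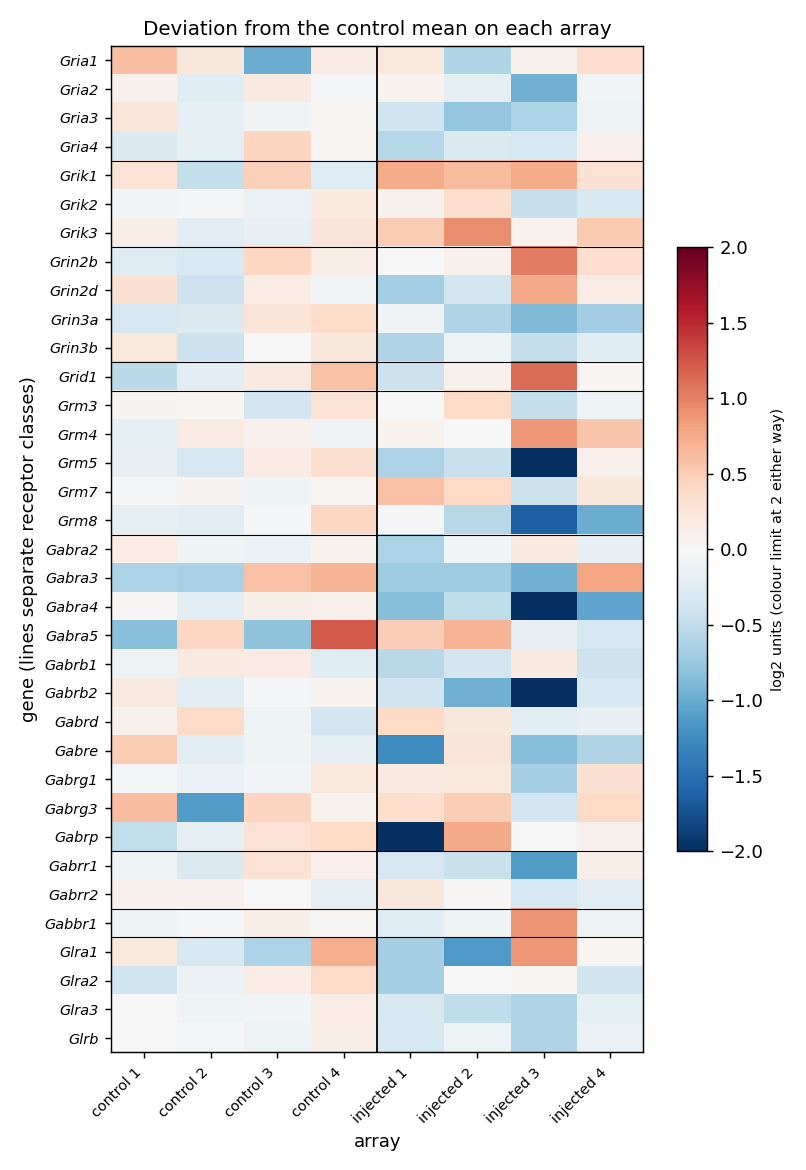
Deviation from the control mean in log2 units (colour, with its limit at 2 either way) of the 35 receptor genes above the floor (rows, grouped by class) on each of the 8 arrays (columns). Injected replicate 3 has the most members at the lowest (15) and the highest (9) value of the 8 arrays.

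Spread within groups was larger after injection. The SD of the 4 injected arrays was larger than that of the 4 controls in 27 of the 35 receptor genes (77.1%), and in 74.7% of all tested genes. The median SD of the receptor genes was 0.29 in control and 0.42 in injected retina, and that of all tested genes was 0.22 and 0.40.

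Probe sets gave a second reading for 14 of the 35 genes. In 8 of these all tested probe sets had the same sign (Gabbr1, Gabrb1, Glrb, Gria3, Gria4, Grik1, Grin3a and Grm5). In the other 6 they did not (Gabra2, Gabrb2, Gria1, Gria2, Grin2b and Grm7). Gabra2 ran from 0.03 to -1.47, the last at a probe set whose name ends in x_at, a kind that can bind related transcripts. The second tested probe set of Glrb (-0.31) and the probe set of Gabrb2 at 0.33 are also of this kind. No gene had such a probe set as its highest-mean one. Why probe sets of a gene disagree was not tested.

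**Figure D4:**
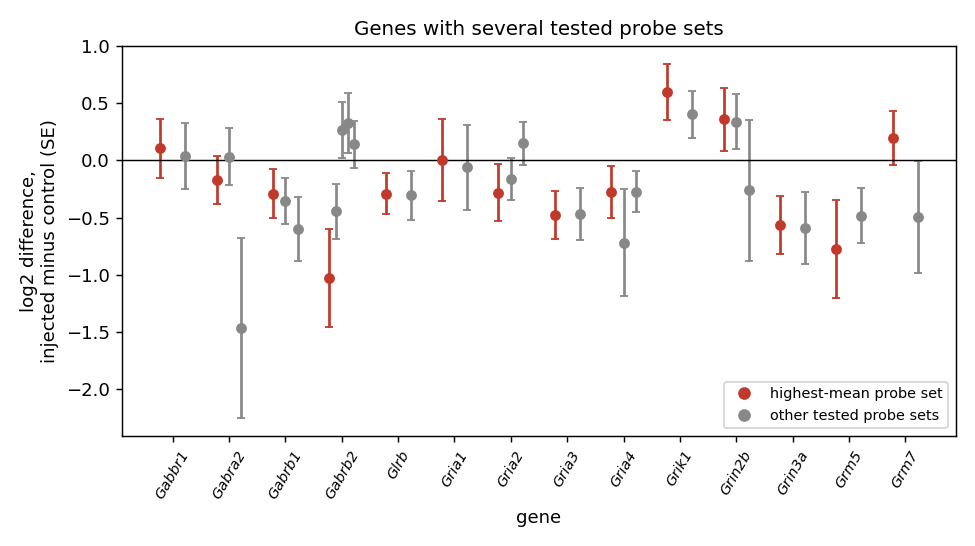
Log2 difference, injected minus control, with its SE (vertical axis) at each tested probe set of the 14 receptor genes that have several, with the highest-mean probe set in red and the others in grey. Gabrb2 runs from -1.03 to 0.33, and for Gria3 both probe sets lie near -0.47.

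Several receptor genes are neighbours on a chromosome, and 7 pairs stood next to each other in the order of protein-coding genes of GRCm38.p6. In 5 pairs both genes were tested, and in 4 of these both differences had 1 sign. As 65.7% of the 35 tested receptor genes were negative, pairs of them often share a sign, and pairs that are not neighbours were not counted. Gabra4 and Gabrb1 stood at -1.23 and -0.29, Gria2 and Glrb at -0.28 and -0.29, Gabrr2 and Gabrr1 at -0.08 and -0.44, and Gabrg3 and Gabra5 at 0.22 and 0.17. Gabrg1 and Gabra2 differed in sign, at 0.01 and -0.17.

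Partner genes were read from 3 lists, with 54 of 68 genes tested and 0 called after adjustment by limma. At an unadjusted p under 0.05, 1 was higher (Slc1a1) and 1 lower (Dlg4), where 3.77% and 2.91% of all tested genes met that limit. The median difference of the 54 was -0.09, and it was -0.11 in transporters, -0.11 in enzymes and -0.03 in auxiliary and scaffold genes. Groups did not overlap for 2 of the 54: the chloride importer Slc12a2, at 0.26, lay above the controls on all injected arrays, and Abat lay below them. Of all tested genes 2.85% lay above and 2.65% below in this way. Of 13 transporters, the neuronal glutamate transporter Slc1a1 was at 0.56 ± 0.23 (SE; adjusted p = 0.712) and the vesicular glutamate transporter Slc17a6 at -0.37 ± 0.21 (SE; adjusted p = 0.739). Of 10 enzymes, the GABA-degrading transaminase Abat was at -0.77 ± 0.40 (SE; adjusted p = 0.729) and the GABA-making enzyme Gad2 at -0.29 ± 0.23 (SE; adjusted p = 0.768). Of 31 auxiliary and scaffold genes, the postsynaptic scaffold genes Dlg4 and Dlg2 were at -0.83 ± 0.36 (SE; adjusted p = 0.713) and -0.65 ± 0.31 (SE; adjusted p = 0.725).

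Markers of the cells that carry or surround these receptors were read in the same way, and 0 passed after adjustment by limma. Ranges over arrays did not overlap for cone, horizontal cell and microglia markers and overlapped for the other lists. The mean deviation from control over 5 of 5 cone markers was -1.76 to -0.35 on injected and -0.08 to 0.10 on control arrays. Over 2 of 3 horizontal cell markers it was -1.46 to -0.55 on injected and -0.32 to 0.20 on control arrays. For 5 of 6 bipolar markers the injected range was -0.72 to -0.16 and the control range -0.38 to 0.52. For 6 of 6 amacrine markers these ranges were -0.32 to -0.03 and -0.05 to 0.07, and for 6 of 7 ganglion cell markers -0.45 to -0.01 and -0.06 to 0.07. Müller glia markers (5 of 5) lay at -0.46 to 0.01 on injected and -0.05 to 0.05 on control arrays. Microglia markers (6 of 7) lay at 0.57 to 1.58 on injected and -0.22 to 0.39 on control arrays, and 3 of 6 lens markers at 1.48 to 5.67 and -2.75 to 2.88. Pigment epithelium markers (5 of 6) lay at -2.39 to -0.46 on injected and -0.87 to 1.29 on control arrays. Of these, Rpe65 had an injected mean of 8.04, below the floor, and reached it through its control arrays. The lens markers Crybb2 and Crygd had control means of 8.07 and 7.44, below the floor, and reached it through their injected arrays. Below the floor, Aif1 of the microglia list differed by -1.17 and Best1 of the pigment epithelium list by 0.25, with overlapping groups. Both signs are opposite to those of their lists. The part of the marker lists in the receptor differences was not tested.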

How the data were processed

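The deposited values are linear intensities, 1 for every probe set on an array. Trimmed by 2% at both ends, their mean is 2500 on all arrays, so they were scaled before deposit. The software is not given in the sources used here. Scaling hides any change in total RNA. The 64 array controls were left out. Of the other probe sets, 34945 had 1 symbol, 932 several and 9160 none, and only those with 1 were named. Intensities were quantile-normalised in limma 3.58.1 (R 4.3.3), turned into log2(intensity + 16), filtered at the 40th percentile of the mean and fitted with lmFit and eBayes (prior df 3.30). Adjustment was by Benjamini-Hochberg over all tested probe sets, with a threshold of 0.05.

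Values on every array are given, in each of 9 receptor classes, for genes at an unadjusted p under 0.05 or whose groups lay apart. Classes with fewer than 2 of these give the 2 with the smallest p. Members, lists, motifs and tests were chosen with earlier results of these data known. Of the marker lists, 1 is not reported here, and 0 of the blood markers and 1 of the muscle markers (0.16) reached the floor. There were 19 alternatives, of which 1 was added after the data were seen. Figures used matplotlib 3.10.9 in Python 3.11.15.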

Additional observations from a re-analysis of the deposited data

Results flagged for a closer look

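Among 70 groups of 4 arrays (35 receptor genes in 2 groups), 4 held an array far from the other 3, by a ratio of gap to range above Dixon's 95% critical value. Chance gives about 1 in 20 such groups, or 3.5 here. All 4 were in injected retina, and 3 of them were injected replicate 3. Gabbr1 stood at 14.67 on that array against 13.56 to 13.70 on the other injected arrays (ratio 0.878). Gabrg1 stood at 11.11 there against 11.97 to 12.08 (ratio 0.89), and Gabrg3 at 8.42 against 9.15 to 9.29 (ratio 0.833). Gabra3 stood at 11.32 on injected replicate 4 against 9.56 to 9.82 on the others (ratio 0.857).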

How the results depend on the processing

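Under all 19 alternatives 0 receptor genes passed after adjustment. Over all probe sets 0 passed in the chosen setting, 8 with array weights, 4 with the mean of all probe sets per gene, and 0 to 38 with 1 array left out (38 without injected replicate 4). The count of receptor genes at an unadjusted p under 0.05 (7) was 2 with no filter (4.65% of members, against 6.08% of all probe sets), 3 in the unmoderated test (8.57%, against 6.3%) and 2 to 7 with 1 array left out. With array weights it was 8 (22.9%, against 8.09%), of which 3 were higher and 5 lower. Genes higher (2) were 0 with no filter, 0 with median centring, 0 in the unmoderated test, 1 with the mean of probe sets and 0 to 2 with 1 array left out. Genes lower (5) were 2 with no filter, 3 in the unmoderated test, 3 without control replicate 2 and injected replicate 3 together (chosen after seeing the data) and 1 to 6 with 1 array left out. Genes with groups that do not overlap (4) were 2 with the mean of probe sets and 9 without both those arrays. With 1 array left out they were 4 to 10, where smaller groups overlap less readily. For genes higher, genes lower and groups that do not overlap, shares of all probe sets were not counted in the alternatives. These counts are therefore not read against a background. Partner genes at an unadjusted p under 0.05 (2) were 1 with no filter, 1 with the deposited scaling, 7 with the mean of probe sets and 0 to 4 with 1 array left out. The median difference (-0.23) was -0.39 with median centring, where the median of all tested probe sets moved from -0.02 to -0.16. It was -0.33 with array weights and -0.23 to -0.12 with 1 array left out.

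With the replicate number as a block, 3 receptor genes were at an unadjusted p under 0.05 (8.57%, against 6.71% of all probe sets), 1 higher (Grik1) and 2 lower (Gabra4 and Gabrb2), and 0 passed. Same-numbered arrays deviated together with a correlation of -0.03 to 0.08, and 1 of 4 controls correlated best with its own number. A pairing is not stated in the labels, and with 4 arrays per group these correlations cannot decide whether the numbers pair the samples.

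Over the 16 tested genes given on every array and the 19 alternatives, 292 differences kept their sign and 12 did not. Grid1 was at -0.048 with median centring, -0.11 with array weights, -0.18 without both arrays and -0.10 to 0.41 with 1 array left out. Gabrr2 was at 0.056 with array weights, 0.039 without both arrays and -0.18 to 0.0078 with 1 left out. Gabbr1 was at -0.088, -0.11 and -0.16 in the settings named for Grid1, -0.40 with the mean of probe sets and -0.15 to 0.22 with 1 array left out. The cause was not tested.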
